A study of Homo sapiens with 12 samples.

Results

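The S100 genes described here are 10 members of a family of small calcium-binding proteins: S100A2, S100A6, S100A7, S100A8, S100A9, S100A10, S100A11, S100A14, S100A16 and S100P. They were taken by gene identifier from a table of 58233 genes, and all 10 were among the 15749 genes that passed the filter on low counts. RNA was sequenced from MCF10-A, an established line of non-tumour human mammary epithelial cells. The 12 libraries cover 3 derivatives labelled Vector, B4-4 and Addback under 2 treatment labels, NA and EDTA, with 2 libraries in each of the 6 groups. In every group the cells had been passaged with 5% horse serum, trypsinized and held detached for 3 hours on poly-HEMA in medium without serum, so an attached or serum-fed comparison is not part of these groups. EDTA chelates divalent cations such as calcium. The sources used here do not give the dose and timing of EDTA, the meaning of NA, whether a derivative is a clone, or how B4-4 and Addback were derived. The labels do not say that the libraries of a group came from separate cultures. The p-values therefore reflect only how far these libraries vary within groups, pooled over all 6 groups, and that variation may be technical.

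S100 proteins are mostly dimers whose EF-hand loops bind calcium, which opens a surface for partner proteins. S100A8 and S100A9 pair to form calprotectin, an antimicrobial and inflammatory complex of neutrophils that stressed epithelia also make, and S100A7 (psoriasin) and S100P are likewise released by epithelial cells. S100A10 and S100A11 bind annexins at membranes, and S100A10 has lost calcium binding. S100A2, S100A6, S100A14 and S100A16 are expressed in many epithelia, S100A2 mainly in basal cells.

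Levels are given as CPM, read counts scaled to a common library size with TMM factors, and a level compared between genes is given per kilobase of merged exons. Differences are log2 fold changes with standard errors (SE). A gene is called at an adjusted p under 0.05, from the quasi-likelihood test of edgeR, Benjamini-Hochberg adjusted over all 15749 genes. Totals ran from 15685376 to 22156173 counts, the members together held 0.55% to 0.872% of each total, and 3 counts, the limit that a count of 0 allows, correspond to 0.135 to 0.191 CPM. The pairs of libraries differed in spread, given as the coefficient of variation beyond counting error, 1 value per group over all tested genes. It was 24.1% in B4-4 NA and 18.8% in Addback EDTA, and 3.00% to 10.2% in the other groups. The tests used 1 estimate of spread per gene for all 6 groups. An SE or adjusted p therefore does not measure the spread of only the groups compared. Addback EDTA 2 was also the only library with lane label 7, all others having 8. ITGB4, the beta 4 integrin chain, stood at 1677 to 1849 CPM in the 4 Vector libraries, at 182 to 395 CPM in the 4 B4-4 libraries and at 1059 to 1524 CPM in the 4 Addback libraries. All 8 basal and general epithelial markers examined were above 3 counts in every library, with summed levels of 9346 to 15170 CPM. The 6 luminal markers summed to 518 to 1041 CPM, the 7 fibroblast markers to 15.1 to 68.1 CPM and the 3 endothelial markers to 3.35 to 34.3 CPM. Nearly all of the luminal sum came from KRT8 and KRT18, with ESR1 and PGR low or absent. Nearly all of the endothelial sum came from PECAM1, with CDH5 at 0 counts in every group. COL1A2 and COL3A1 of the fibroblast list were near or at 0 throughout. In such bulk samples, fewer cells of a type and less RNA per cell cannot be told apart.

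On GRCh38, 9 of the 10 members lie on chromosome 1. S100A9 (ENSG00000163220, 153357854 to 153361027, plus strand), S100A8 (ENSG00000143546, 153390032 to 153391188, minus strand) and S100A7 (ENSG00000143556, 153457744 to 153460701, minus strand) lie in that order, with S100A12, S100A7A and S100A7L2 between them. S100A6, S100A2, S100A16 and S100A14 lie within 153534599 to 153616986, and S100A10 and S100A11 within 151982915 to 152047907. S100P (ENSG00000163993) is on chromosome 4 at 6693069 to 6697170, plus strand. S100A6 and S100A11 each overlap a non-coding gene on the other strand, and since no source used here states whether counting was strand-specific, the reads of such a pair cannot be told apart.

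All 10 members matched RefSeq promoter entries (GRCh38.p14, 14 entries). For 9 members the stretch from 41 to 12 bases before an annotated start is shown, because these stretches differ between members in the TATA element, the short A- and T-rich motif at which the basal transcription machinery can be positioned. Capitals mark TATAAA, or TATAA where the sixth letter differs, and all stretches are written 5′ to 3′ on the gene's strand.
S100A7, chr1:153460663-153460692, minus strand: ccaggctgagcctTATAAAggactgctctt
S100A8, chr1:153391085-153391114, minus strand: aagcctaaccgcTATAAAaaggagctgcct
S100A9, chr1:153357813-153357842, plus strand: tcaggagctgccTATAAAtgccgagcctgc
S100P, chr4:6693837-6693866, plus strand: tatgaggctgcctTATAAAgcaccaagagg
S100A6, chr1:153536003-153536032, minus strand: gcaccgaccgcTATAAggccagtcggactg
S100A14, chr1:153616337-153616366, minus strand: ccttcccccaggTATAAgagctgagctcag
S100A2, chr1:153565856-153565885, minus strand: catgtcatgagaatgaggcctggcaccagt
S100A11, chr1:152037016-152037045, minus strand: agtaaggcttgggcaaggctgggccgggaa
S100A16, chr1:153613149-153613178, minus strand: tgtgtatccctttaacaagggcccaacccc
TATAAA begins 28 bases before the start in S100A7 and S100P and 29 bases before it in S100A8 and S100A9. These 4 are the only members with TATAAA anywhere in the promoter entries searched, which run from 250 bases before to 50 bases after a start, on both strands. The 5-letter TATAA was found in 6 members: in those 4, where it lies within TATAAA and, in S100A7 and S100P, also overlaps it on the other strand, and in S100A6 and S100A14, 30 and 29 bases before the start. Over all 35116 RefSeq promoters of the same length, 11.5% hold TATAAA, 20.4% hold TATAA, and 2.17% hold TATAAA on the gene's strand with its first base 35 to 25 bases before the start. The AP-1 motif TGANTCA, which 7.71% of promoters hold, was found in 1 member, S100A2, 52 bases before the start shown. The entry of the other S100A2 start holds no AP-1 match. S100A16 also has more than 1 annotated start, with a single stretch shown. S100A8 has 3 annotated starts, and only the middle one, shown here, has TATAAA at this distance. The entry of the start farthest upstream holds none, and that of the third start holds the same element 126 bases before it. A match describes letters and shows no bound factor.

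The 4 members with TATAAA were also the 4 whose level varied most between groups, a grouping made after the values were seen. From the lowest to the highest of the 6 group means, the range in log2 CPM was 5.15 for S100P, 4.78 for S100A8, 4.71 for S100A7 and 3.16 for S100A9. For the other 6 it ran from 0.57 in S100A14 to 1.05 in S100A6. The S100A7 range depends on the prior count of 2, since 2 of its groups were at 0. Those 4 were also the lowest in level per kilobase, so level and motif move together across the members: the means over the 12 libraries were 217 CPM per kilobase for S100A9, 36.0 for S100A8, 5.30 for S100P and 2.71 for S100A7. The remaining order was S100A2 (1729 ± 491, SD over 12 libraries), S100A6 (1007 ± 271), S100A14 (932 ± 205), S100A11 (879 ± 161), S100A16 (419 ± 72.8) and S100A10 (316 ± 73.6 CPM per kilobase). S100A6, S100A14 and S100A11 differed by less than their spread over libraries.

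**Figure D1:**
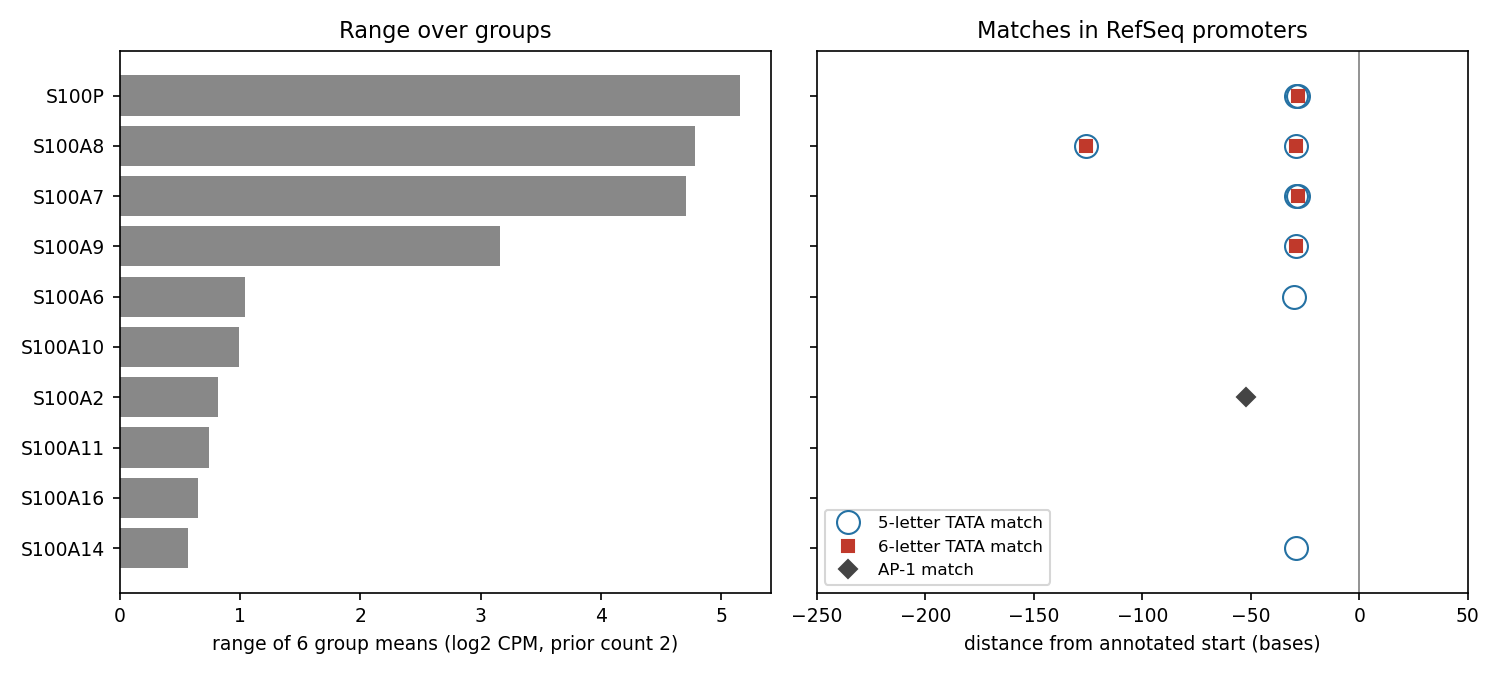
Left, range of the 6 group means of each S100 gene (log2 CPM with a prior count of 2, bars from 0); right, distance of motif matches from the annotated start in bases, in RefSeq promoters. S100P, S100A8, S100A7 and S100A9 have the 4 longest bars and the only 6-letter TATA matches; the S100A8 match at −126 is the same element read from another annotated start.

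**Figure D2:**
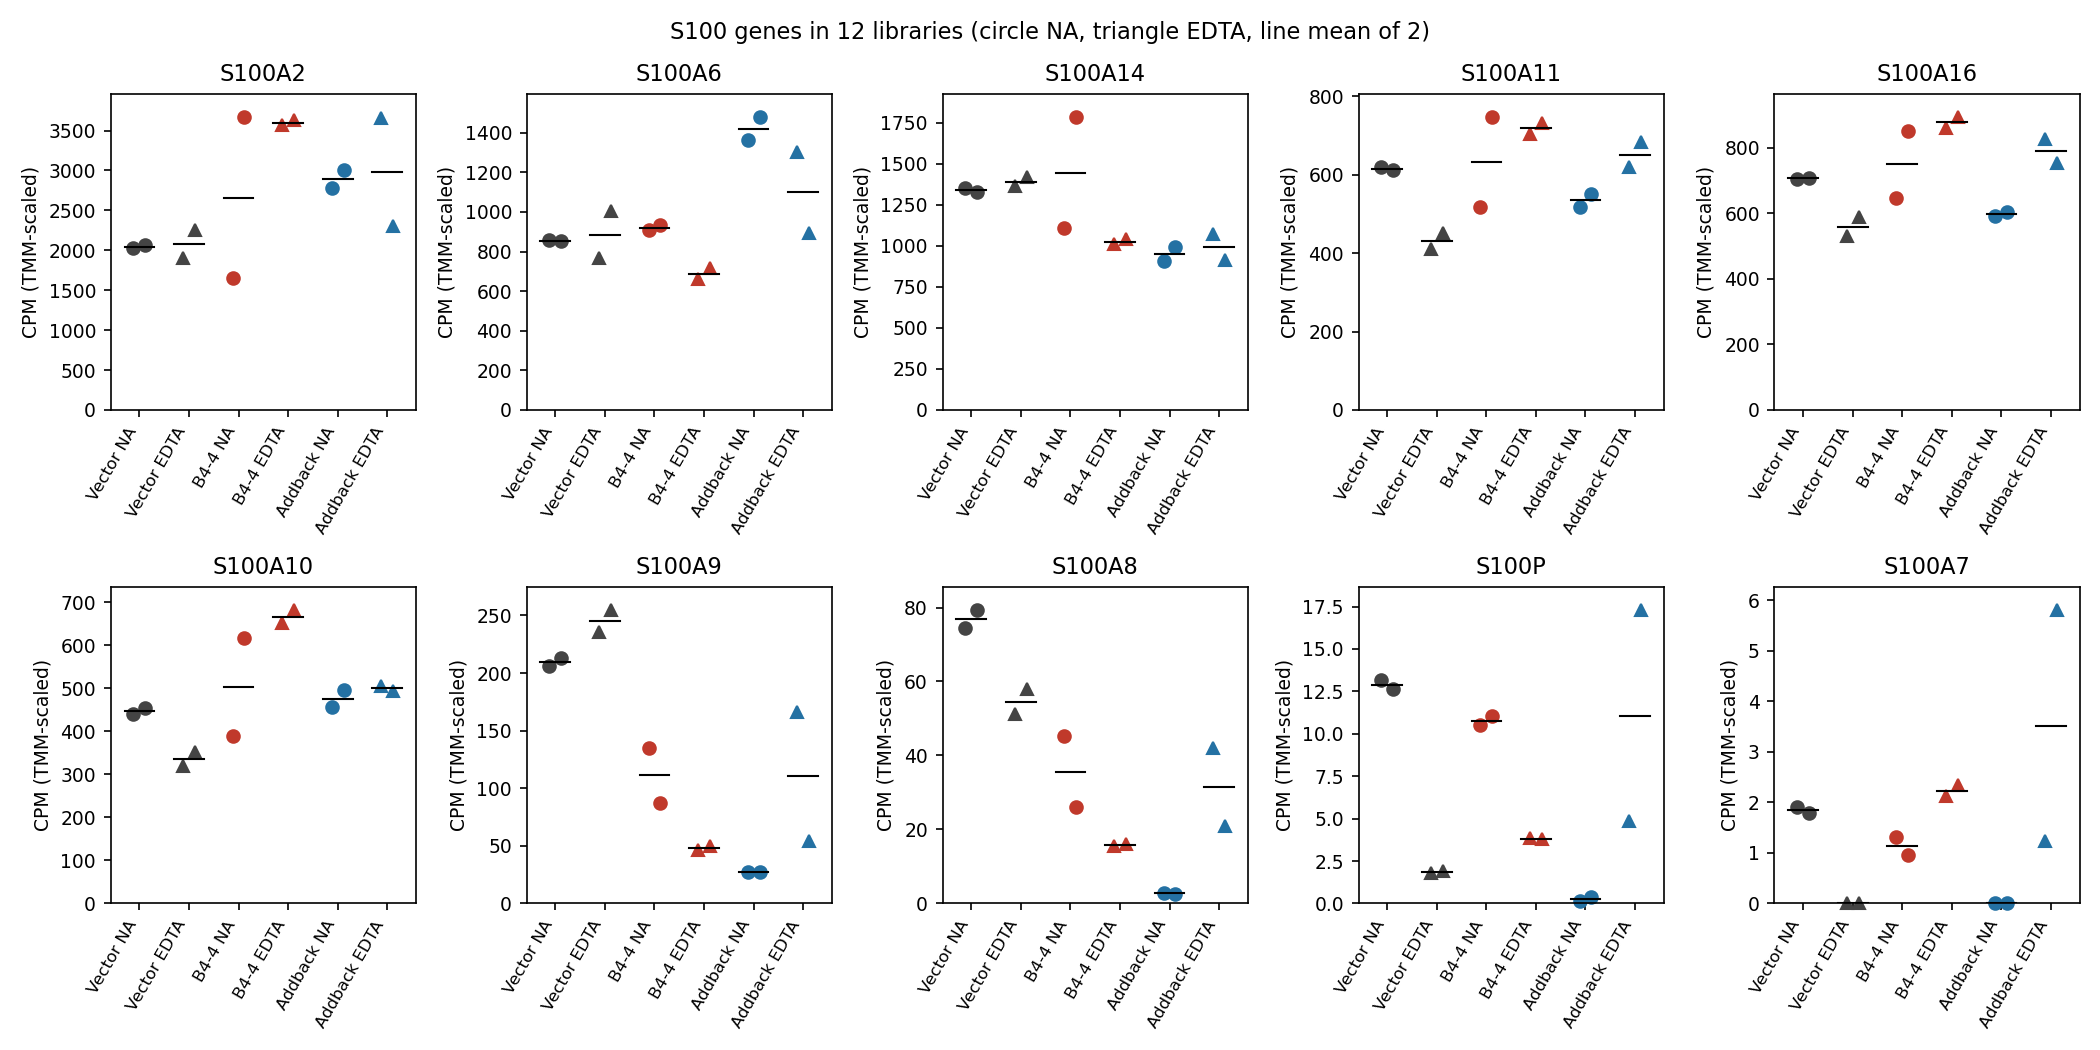
Level of each S100 gene in the 12 libraries (vertical axes in TMM-scaled CPM, from 0; circles NA, triangles EDTA, line the mean of the 2 libraries; grey Vector, red B4-4, blue Addback). S100A8, S100A9, S100P and S100A7 are lowest or at 0 in Addback NA, and the B4-4 NA and Addback EDTA pairs are the widest apart for several genes.

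The effect of EDTA on these genes differed between the derivatives. In Vector, S100A7, S100P and S100A11 fell and no member rose. In B4-4, S100A8 and S100P fell and none rose. In Addback none fell, and S100A7, S100A8, S100A9, S100P and S100A16 rose. In Vector 3 of 10 members were called, against a background of 15.3% of all genes (6.36% higher and 8.98% lower), with a median log2 fold change of −0.38 over the members. In B4-4 it was 2 of 10, beside 19.9% of all genes (9.88% higher and 10% lower), with a median of −0.12. In Addback it was 5 of 10, beside 16.9% (8.64% higher and 8.29% lower), with a median of +0.34. Over all genes these medians lay between −0.01 and +0.01. Without Vector EDTA 1, none of the 3 Vector calls was kept. The background shares also rest on single libraries: leaving out 1 library gave 4.5% to 25.6% of all genes in Vector, 4.75% to 29.2% in B4-4 and 3.99% to 27.3% in Addback.

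Tested directly, the EDTA effect was higher in Addback than in B4-4 for S100A7, S100A8, S100A9 and S100P (4 of 10, background 8.78% of all genes, 4.22% higher and 4.57% lower). Against Vector it was higher in Addback for S100A7, S100A8, S100A11, S100A16 and S100P (5 of 10, background 24.2%, 13.4% higher and 10.8% lower), and higher in B4-4 for S100A7, S100A10, S100A11 and S100A16 (4 of 10, background 27.0%, 14.4% higher and 12.6% lower). No member was lower in any of these 3 tests, which share libraries with each other and with the comparisons above.

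**Figure D3:**
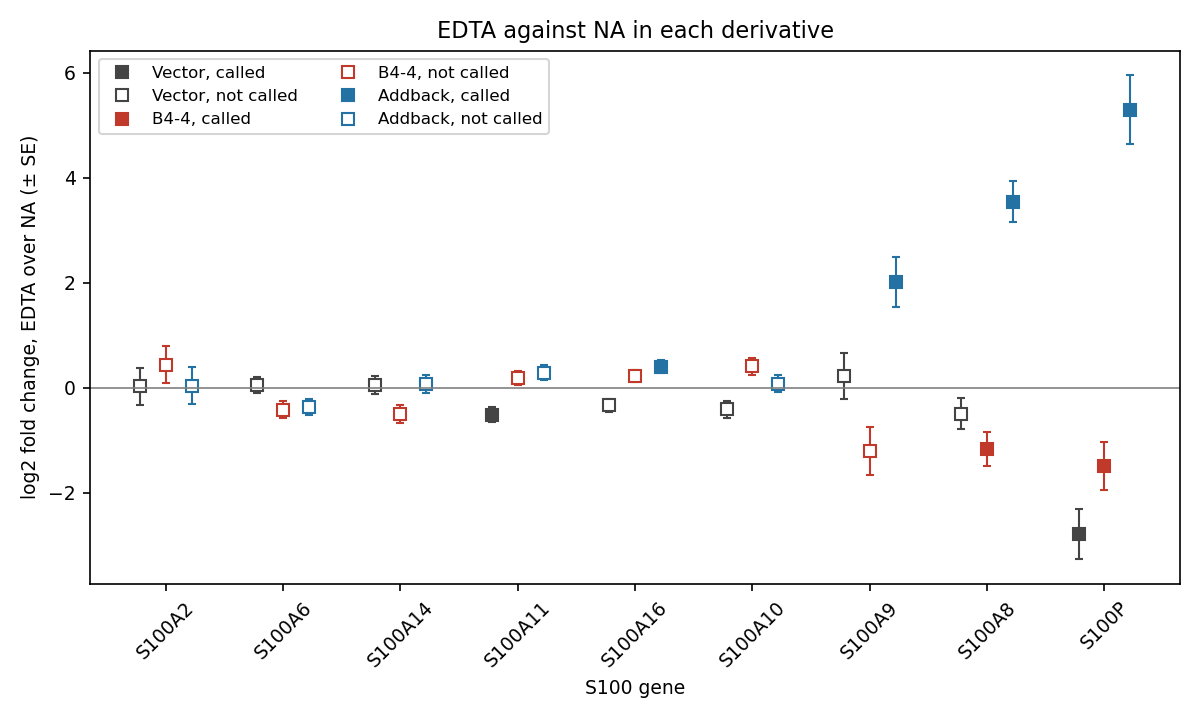
Log2 fold change of EDTA over NA (vertical axis, points with bars of 1 SE) in Vector, B4-4 and Addback for 9 S100 genes, filled where the adjusted p was under 0.05. S100A9, S100A8 and S100P lie above 2 in Addback and below −1 in B4-4, where S100A9 was not called. S100A7 is left out because 2 groups were at 0.

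Between derivatives, the members differed by treatment. B4-4 did not differ from Vector for any member in NA by edgeR (0 of 10, background 7.16%, 3.38% higher and 3.78% lower), where 1 member had an unadjusted p under 0.05 and DESeq2 called 1, S100A8. Without B4-4 NA 1, 4 members were called, beside 21.3% of all genes in that fit. In EDTA, S100A7, S100A10, S100A11 and S100A16 were higher and S100A8 and S100A9 lower in B4-4 than in Vector, 6 of 10 beside a background of 43.4% (22.9% higher and 20.4% lower). All 6 of these calls held when any single library was left out. Addback NA was lower than B4-4 NA for S100A7, S100A8, S100A9, S100A14 and S100P and higher for S100A6 (6 of 10, background 23.6%, 11.3% higher and 12.3% lower, median −0.47). Against Vector NA, a comparison that uses the same Addback libraries, S100A7, S100A8, S100A9, S100A14 and S100P were lower and S100A6 higher (6 of 10, background 36.1%, 17.9% higher and 18.1% lower, median −0.37). In EDTA, Addback was higher than B4-4 for S100A6 and S100P (2 of 10, background 14.1%, 6.54% higher and 7.54% lower). Against Vector in EDTA it was higher for S100A7, S100A10, S100A11, S100A16 and S100P (5 of 10, background 30.0%, 16.1% higher and 14% lower). Of 120 tests of members in 12 comparisons, 48 were called, of which 25 held without any single library. Beside these 48, the share of all genes called ran from 7.16% to 43.4% in the 12 comparisons, which share libraries. How many calls over all genes held without any single library is not given here. Without the filter on low counts, the call ended for EDTA on S100A8 in B4-4 (adjusted p = 0.075) and on S100A9 in Addback (0.0743), for S100A9 in Addback NA against B4-4 NA (0.0583) and for the S100A9 difference in EDTA effect between Addback and B4-4 (0.0611). A fit of the compared groups alone ended the EDTA calls of S100A8 in B4-4 (0.0742) and of S100A7 and S100A9 in Addback (0.101 and 0.237). It also ended the calls of S100A14 in Addback NA against B4-4 NA (0.153), of S100A6 and S100P in Addback EDTA against B4-4 EDTA (0.0654 and 0.25) and of S100P in Addback EDTA against Vector EDTA (0.0694). Upper-quartile scaling ended those of S100A16 for EDTA in Addback (0.0799), of S100A14 in Addback NA against Vector NA (0.0753) and of S100A16 for the EDTA effect in B4-4 against Vector (0.0774).

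S100A8 and S100A9, the subunits of calprotectin, were highest in Vector and lowest in Addback NA. S100A8 measured 74.5 and 79.2 CPM in Vector NA, 51.2 and 57.9 in Vector EDTA, 45.1 and 26.2 in B4-4 NA, 15.6 and 16.1 in B4-4 EDTA, 2.79 and 2.60 in Addback NA, and 42.0 and 20.9 in Addback EDTA. No library of Addback NA came near any other group, whose lowest library was B4-4 EDTA 1. S100A9 measured 206 and 213 CPM in Vector NA, 235 and 254 in Vector EDTA, 135 and 87.5 in B4-4 NA, 46.5 and 49.4 in B4-4 EDTA, 27.5 and 27.0 in Addback NA, and 166 and 54.5 in Addback EDTA. Vector and B4-4 did not overlap for either gene, while the Addback EDTA libraries spanned much of the range between Addback NA and Vector.

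In Addback, S100A8 was higher with EDTA by 3.54 on the log2 scale (SE 0.39, adjusted p = 0.000651), and the value stayed between 2.95 and 3.96 without either Addback EDTA library. S100A9 was higher by 2.02 (SE 0.47, adjusted p = 0.0286), which was 0.999 without Addback EDTA 1. This S100A9 call was lost without Vector NA 1, Vector NA 2, Vector EDTA 1, B4-4 EDTA 1, Addback NA 1 or Addback NA 2 (adjusted p 0.0502 to 0.151). In B4-4 the EDTA difference was −1.17 for S100A8 (SE 0.32, adjusted p = 0.0343), a call lost without any single library other than B4-4 NA 2, Addback EDTA 1 and Addback EDTA 2 (adjusted p 0.0518 to 0.175), with a value of −0.73 without B4-4 NA 1. For S100A9 it was −1.21 (SE 0.46, adjusted p = 0.106), and in Vector the EDTA differences were −0.49 for S100A8 (SE 0.30, adjusted p = 0.31) and +0.22 for S100A9 (SE 0.44, adjusted p = 0.778). The difference in EDTA effect between Addback and B4-4 was 4.71 for S100A8 (SE 0.51, adjusted p = 0.00109), kept without any library. For S100A9 it was 3.23 (SE 0.66, adjusted p = 0.0276), lost without either Vector NA, B4-4 EDTA or Addback NA library or B4-4 NA 1 (adjusted p 0.0594 to 0.122).

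Addback NA stood below Vector NA by 4.83 for S100A8 (log2 fold change −4.83, SE 0.39, adjusted p = 3.31e-05) and by 2.94 for S100A9 (−2.94, SE 0.49, adjusted p = 0.00318), both kept without any library. Against B4-4 NA the values were −3.72 for S100A8 (SE 0.39, adjusted p = 0.000312), also kept, and −2.03 for S100A9 (SE 0.47, adjusted p = 0.0214). The latter was lost without B4-4 NA 1, Addback NA 1 or Addback NA 2 (adjusted p 0.0986 to 0.111). In EDTA, B4-4 was below Vector by −1.78 for S100A8 (SE 0.32, adjusted p = 0.00204) and by −2.35 for S100A9 (SE 0.47, adjusted p = 0.00581). In NA the differences of B4-4 from Vector were −1.11 for S100A8 (SE 0.31, adjusted p = 0.0638) and −0.91 for S100A9 (SE 0.45, adjusted p = 0.26).

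The balance of the 2 subunits also varied. S100A9 counts were 2.77 and 2.69 times S100A8 counts in Vector NA, 4.60 and 4.39 times in Vector EDTA, 2.99 and 3.35 times in B4-4 NA, and 2.98 and 3.08 times in B4-4 EDTA. The ratio was 9.84 and 10.4 in Addback NA, above every other library, and 3.96 and 2.61 in Addback EDTA. These are ratios of counts, not corrected for gene length, and they were not tested. Over the 12 libraries S100A8 and S100A9 had a Pearson r of 0.935 in log2 CPM, given as a description of libraries that fall into groups.

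**Figure D4:**
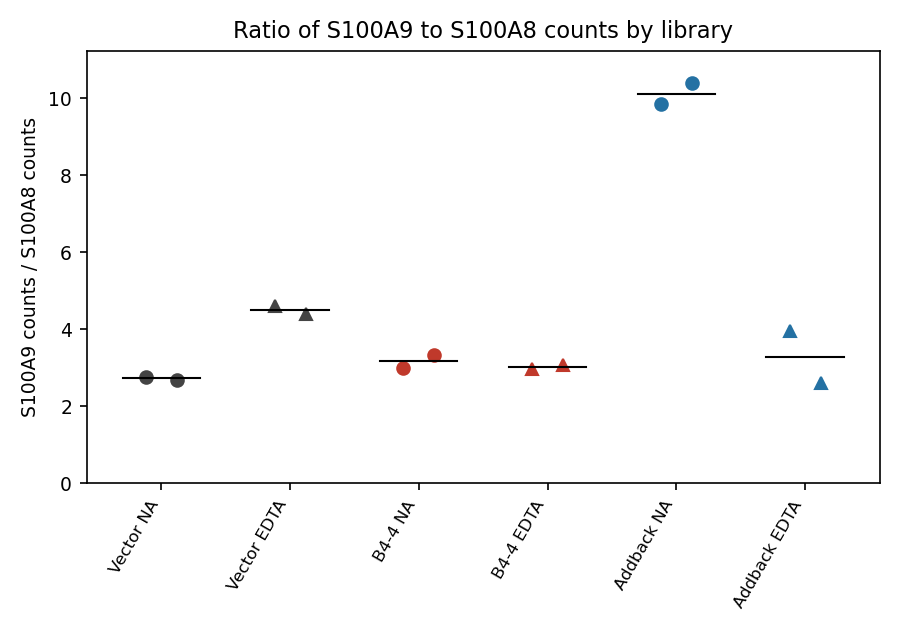
Counts of S100A9 divided by counts of S100A8 (vertical axis, from 0) in each of the 12 libraries, with the mean of each pair as a line. The 2 Addback NA libraries, at 9.84 and 10.4, lie above the other 10, which run from 2.61 to 4.60.

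Neutrophils and monocytes carry both calprotectin genes and S100P, so myeloid markers were read beside them. LYZ, TYROBP and FCGR3B were at 0 counts in all 12 libraries, and between 1 and 4 of the 10 myeloid markers exceeded 3 counts in a library. The summed level was 14.2 and 15.4 CPM in Vector NA, 11.1 and 11.9 in Vector EDTA, 15.8 and 14.7 in B4-4 NA, 8.37 and 9.58 in B4-4 EDTA, 55.9 and 48.5 in Addback NA, and 35.9 and 8.98 in Addback EDTA. Nearly all of the Addback NA sum was CD14, a lipopolysaccharide co-receptor, at 54.6 and 47.5 CPM. Without CD14 the other 9 markers summed to 1.34 and 1.03 CPM in Addback NA, 0.643 and 0.398 in Addback EDTA, and 1.18 to 2.55 in the Vector and B4-4 libraries. MPO, a neutrophil granule enzyme, was at 0 counts in all 4 Addback libraries and at 1 to 11 counts in the others. The part of these markers in the S100 values was not tested. KRT14, a basal keratin, was also lower in Addback NA than in Vector NA (−1.85, SE 0.26, adjusted p = 0.000785). Of the other basal and general epithelial markers, KRT5, KRT17, TP63, CDH1 and LAMB3 had a lower mean in Addback NA than in Vector NA. EPCAM (179 against 113 CPM) and ITGA6 (908 against 836 CPM) had a higher one. DCN, the fibroblast marker decorin, was higher in Addback NA than in Vector NA (+4.30, SE 0.54, adjusted p = 0.000339). Of the other fibroblast markers, COL1A1, LUM, POSTN and PDGFRB also had a higher mean in Addback NA than in Vector NA. COL1A2 and COL3A1, near 0 in both groups, had a lower one. The part of none of these genes in the S100 values was tested.

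S100P, a secreted ligand of the receptor AGER that also binds ezrin, fell with EDTA in Vector and B4-4 and rose in Addback. It measured 13.2 and 12.6 CPM in Vector NA, 1.81 and 1.90 in Vector EDTA, 10.5 and 11 in B4-4 NA, 3.87 and 3.78 in B4-4 EDTA, 0.168 and 0.379 in Addback NA, and 4.85 and 17.3 in Addback EDTA. The Addback NA levels rest on 3 and 7 counts. With and without EDTA the groups did not overlap in any derivative. The log2 fold change was −2.79 in Vector (SE 0.48, adjusted p = 0.00421), a call lost without Vector EDTA 1 (adjusted p = 0.0522). In B4-4 it was −1.49 (SE 0.45, adjusted p = 0.0442), lost without any single library other than the Addback EDTA pair (adjusted p 0.0611 to 0.186). In Addback it was +5.30 (SE 0.66, adjusted p = 0.000799), kept without any library and +4.11 without Addback EDTA 2.

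By summed counts, S100P in Addback EDTA was 39.9 times its level in Addback NA, with an exact 95% interval of 21.5 to 83.9 that covers counting error only. Without Addback EDTA 2 the ratio was 17.6 (9.13 to 38.1), and without Addback EDTA 1 it was 60.9 (32.7 to 128). Vector NA was 48.3 times Addback NA (26.1 to 101) and B4-4 NA 39.5 times (21.2 to 83.1). The fitted differences of Addback NA were −5.52 from Vector NA (SE 0.65, adjusted p = 0.000172) and −5.26 from B4-4 NA (SE 0.66, adjusted p = 0.000525). In EDTA, Addback exceeded Vector by 2.57 (SE 0.48, adjusted p = 0.00333), and by 1.38 without Addback EDTA 2 (adjusted p = 0.00289). Its difference from B4-4 in EDTA, +1.53 (SE 0.45, adjusted p = 0.0493), rested on Addback EDTA 2: without it the value was +0.34 with an adjusted p of 0.348, and the call was lost without any library other than Addback EDTA 1.

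S100A7, an antimicrobial protein of stressed squamous epithelium, was detected in 4 groups and not in the other 2. Its counts were 34 and 35 in Vector NA, 0 and 0 in Vector EDTA, 23 and 15 in B4-4 NA, 41 and 44 in B4-4 EDTA, 0 and 0 in Addback NA, and 21 and 102 in Addback EDTA. The highest level, 5.79 CPM in Addback EDTA 2, stood well above its partner at 1.23 CPM. Folds were set against the limit of 3 counts over a group at 0, with the counts of the higher group taken as exact. These bounds therefore do not cover the counting error of the higher group or the spread between libraries. On these terms Vector NA was at least 27.7-fold higher than Vector EDTA, and Addback EDTA at least 42.3-fold higher than Addback NA. In EDTA, B4-4 was at least 31.5-fold and Addback at least 50.6-fold higher than Vector. Both Addback EDTA bounds lean on Addback EDTA 2: from Addback EDTA 1 alone they were at least 14.9-fold over Addback NA and at least 17.8-fold over Vector EDTA. In NA, Vector was at least 23.1-fold and B4-4 at least 14.1-fold higher than Addback.

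For these 6 comparisons of S100A7 the adjusted p was 0.00687, 0.00364, 0.0015, 0.0013, 0.00368 and 0.0146, in that order. The first was lost without Vector EDTA 1 (adjusted p = 0.0504), and the last without B4-4 NA 1, Addback NA 1 or Addback NA 2 (adjusted p 0.0624 to 0.0717). In B4-4 the EDTA difference of S100A7 was +0.96 (SE 0.63, adjusted p = 0.318). S100A7A, a close copy with which S100A7 may share reads, was likewise at 0 in both libraries of Vector EDTA and Addback NA. It reached at most 15 counts elsewhere, in Addback EDTA 2.

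S100A10, S100A11 and S100A16 moved together on a narrower scale. Each had its lowest group mean in Vector EDTA and its highest in B4-4 EDTA. S100A10, the light chain that binds annexin A2, measured 439 and 455 CPM in Vector NA, 320 and 352 in Vector EDTA, 390 and 617 in B4-4 NA, 652 and 681 in B4-4 EDTA, 456 and 495 in Addback NA, and 506 and 493 in Addback EDTA. S100A11, a partner of annexin A1, measured 620 and 611, 411 and 451, 519 and 748, 705 and 733, 519 and 552, and 620 and 684 CPM in the same order of groups. S100A16 measured 705 and 709, 530 and 587, 647 and 853, 861 and 894, 592 and 604, and 826 and 754 CPM. In each of the 3 genes both Vector EDTA libraries lay below all 10 others, and B4-4 NA 2 lay well above B4-4 NA 1.

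B4-4 EDTA exceeded Vector EDTA by 0.99 for S100A10 (SE 0.16, adjusted p = 0.000549), by 0.74 for S100A11 (SE 0.14, adjusted p = 0.00115) and by 0.65 for S100A16 (SE 0.12, adjusted p = 0.000957). The EDTA effect in B4-4 was above that in Vector by 0.82 (SE 0.23, adjusted p = 0.0204), 0.70 (SE 0.20, adjusted p = 0.0201) and 0.57 (SE 0.17, adjusted p = 0.0255). Without B4-4 NA 1 these values were 0.52, 0.45 and 0.37, still called (adjusted p 0.00571, 0.0126 and 0.0352). All 3 of these calls were lost without any 1 of Vector NA 1, Vector NA 2, Vector EDTA 1, B4-4 EDTA 1 and B4-4 EDTA 2 (adjusted p 0.0536 to 0.102). Within Vector, EDTA lowered S100A11 (−0.51, SE 0.14, adjusted p = 0.0263), which was lost without any 1 of the 4 Vector libraries (adjusted p 0.0681 to 0.177). The values there were −0.41 for S100A10 (SE 0.16, adjusted p = 0.106) and −0.34 for S100A16 (SE 0.12, adjusted p = 0.0721).

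Addback EDTA stood above Vector EDTA by 0.57 for S100A10, 0.60 for S100A11 and 0.50 for S100A16 (adjusted p 0.0189, 0.00699 and 0.00787). S100A10 lost this call without any 1 of the 4 libraries compared (adjusted p 0.0587 to 0.128), and S100A11 and S100A16 without Vector EDTA 1 (0.0634 and 0.0751). In Addback, S100A16 was higher with EDTA (+0.40, SE 0.12, adjusted p = 0.0363). It lost that call without either Vector NA, either B4-4 EDTA or any Addback library (adjusted p 0.0629 to 0.197). The EDTA effect in Addback was above that in Vector for S100A16 by 0.74 (adjusted p = 0.0076), kept without any library. For S100A11 it was 0.80 (adjusted p = 0.0115), lost without Vector EDTA 1 or Addback NA 1 (adjusted p 0.055).

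S100A10 and ANXA2, its partner in the annexin A2 tetramer, had a Pearson r of 0.928 over the 12 libraries, chosen for display after the values were seen. ANXA2 measured 1936 and 1989 CPM in Vector NA, 1469 and 1535 in Vector EDTA, 1782 and 3346 in B4-4 NA, 3112 and 3159 in B4-4 EDTA, 1774 and 1882 in Addback NA, and 2029 and 2623 in Addback EDTA. Like S100A10, it was lowest in Vector EDTA and higher in B4-4 EDTA (+1.06, SE 0.24, adjusted p = 0.00653), kept without any library. Other partner pairs were less alike: r was 0.485 for S100A11 and ANXA1, 0.368 for S100P and EZR, and −0.07 for S100A6 and CACYBP. Between members the highest r was 0.936, for S100A11 and S100A16, and the lowest −0.594, for S100A9 and S100A10.

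**Figure D5:**
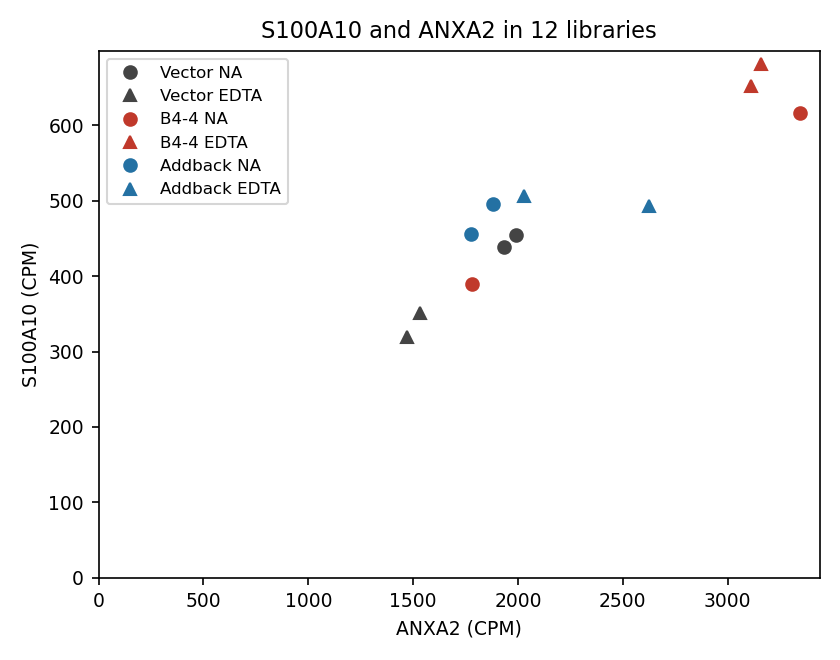
S100A10 (vertical axis) against ANXA2 (horizontal axis), both in TMM-scaled CPM from 0, 1 point per library. The Vector EDTA libraries are lowest for both genes, and both B4-4 EDTA libraries and B4-4 NA 2 are highest.

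S100A6, a partner of CACYBP (calcyclin-binding protein), was highest in Addback NA. It measured 856 and 852 CPM in Vector NA, 766 and 1004 in Vector EDTA, 908 and 933 in B4-4 NA, 662 and 715 in B4-4 EDTA, 1362 and 1480 in Addback NA, and 1303 and 895 in Addback EDTA. Addback NA exceeded Vector NA by 0.73 (SE 0.16, adjusted p = 0.00422), kept without any library, and B4-4 NA by 0.63 (SE 0.16, adjusted p = 0.0158), lost without any 1 of the 4 libraries compared (adjusted p 0.0618 to 0.0966). In EDTA, Addback exceeded B4-4 by 0.68 (SE 0.16, adjusted p = 0.0168). This was lost without B4-4 EDTA 1, B4-4 EDTA 2 or Addback EDTA 1 (adjusted p 0.0828 to 0.152), and the value was 0.38 without Addback EDTA 1. EDTA itself gave no called difference in S100A6 in any derivative.

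S100A14 measured 1351 and 1326 CPM in Vector NA, 1362 and 1419 in Vector EDTA, 1106 and 1784 in B4-4 NA, 1008 and 1043 in B4-4 EDTA, 904 and 995 in Addback NA, and 1074 and 911 in Addback EDTA. B4-4 EDTA lay below Vector EDTA without overlap (−0.44, SE 0.17, adjusted p = 0.0587), which was not called in the fit of all 12 libraries. RLE factors, upper-quartile factors and DESeq2 called it (adjusted p 0.04675, 0.0379 and 0.0238). So did the fit without the filter and that of the compared groups alone (0.000277 and 0.00018). Addback NA was below B4-4 NA (−0.61, SE 0.17, adjusted p = 0.0266), a call lost without B4-4 NA 2, Addback NA 1 or Addback NA 2 (adjusted p 0.0822 to 0.168), with a value of −0.22 without B4-4 NA 2. It was below Vector NA by a log2 fold change of −0.50 (SE 0.17, adjusted p = 0.0432), lost without any single library other than the B4-4 NA and Addback EDTA pairs (adjusted p 0.062 to 0.204). S100A2, the most abundant member per kilobase, measured 2025 and 2065 CPM in Vector NA, 1907 and 2256 in Vector EDTA, 1650 and 3670 in B4-4 NA, 3566 and 3634 in B4-4 EDTA, 2780 and 3011 in Addback NA, and 3655 and 2299 in Addback EDTA. S100A2 was not called in any of the 12 comparisons in the fit of all 12 libraries. B4-4 EDTA and Vector EDTA did not overlap for it, with a difference of +0.79 (SE 0.35, adjusted p = 0.108). A fit of these groups alone, without the wider B4-4 NA and Addback EDTA pairs, called this difference (adjusted p = 1.37e-05).

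Of 11 other S100 genes, 6 passed the filter, as did S100PBP, which encodes an S100P-binding protein and is no family member. S100A4, a family member associated with motile and mesenchymal cells, measured 10.6 and 12 CPM in Vector NA, 19.5 and 25.3 in Vector EDTA, 22.4 and 14.2 in B4-4 NA, 11.9 and 13.5 in B4-4 EDTA, 138 and 147 in Addback NA, and 110 and 55.5 in Addback EDTA. All Addback libraries lay above all others. Addback NA exceeded Vector NA by 3.66 (SE 0.34, adjusted p = 8.02e-05) and B4-4 NA by 2.96 (SE 0.33, adjusted p = 0.000477). S100A3, which overlaps S100A4 on the same strand so that reads may be split between them, was higher in Addback NA than in Vector NA by 2.45 (SE 0.28, adjusted p = 0.000107). S100A1 and S100A13, which overlap on opposite strands, had a lower EDTA effect in B4-4 than in Vector, by −3.01 (SE 0.60, adjusted p = 0.00339) and −0.88 (SE 0.21, adjusted p = 0.0101). The S100A1 value rests on low counts, 8 to 43 a library. S100A7L2 and S100Z were at 0 in every library.

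Of the 7 fused-type S100 genes of the epidermal differentiation complex, such as filaggrin, 3 were tested and none was called in any of the 12 comparisons by edgeR or DESeq2, nor had an unadjusted p under 0.05. Counts in this list were low and uneven: in B4-4 NA, filaggrin (FLG) had 79 and 9 counts and hornerin (HRNR) 94 and 0. The lack of calls therefore does not show that these genes were unchanged. All 11 annexins and intracellular partners were tested. Between B4-4 and Vector in EDTA 6 of them were higher and none lower, beside a background of 22.9% of all genes higher. MYH9, the myosin heavy chain that S100 proteins can bind, was among them: it rose from 818 and 869 CPM in Vector EDTA to 2219 and 2246 in B4-4 EDTA (+1.4, SE 0.12, adjusted p = 6.59e-06). With EDTA in Vector 1 of the 11 was higher and 1 lower, beside 6.36% and 8.98% of all genes. In B4-4 it was likewise 1 and 1, beside 9.88% and 10%, and in Addback 1 was higher and none lower, beside 8.64% and 8.29%.

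Of 5 surface receptors of extracellular S100 proteins, 4 were tested. TLR4, which binds the calprotectin subunits, measured 7.90 and 6.58 CPM in Vector NA, 4.54 and 4.69 in Vector EDTA, 6.25 and 3.13 in B4-4 NA, 10.4 and 11.1 in B4-4 EDTA, 16.4 and 14.6 in Addback NA, and 8.94 and 7.33 in Addback EDTA. It was higher in Addback NA than in B4-4 NA (+1.71, SE 0.25, adjusted p = 0.000673). EDTA raised it in B4-4 (+1.19, SE 0.26, adjusted p = 0.00831), which was lost without B4-4 EDTA 1 or B4-4 EDTA 2 (adjusted p 0.0585 and 0.0608). EDTA lowered it in Addback (−0.93, SE 0.24, adjusted p = 0.0219), lost without Addback NA 1, Addback NA 2 or Addback EDTA 2 (adjusted p 0.0737 to 0.155). Its r with S100A8 was −0.715 over the 12 libraries. AGER, the receptor for advanced glycation end products, stayed at 22 to 57 counts a library.

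For the 3 members with the widest range, the genes with the most similar pattern were sought among 10471 genes whose mean level reached 5 CPM, by Pearson r of log2 CPM over the 12 libraries. For S100P they were ZFP64 (r = 0.961), MUC16 (0.954) and LAS1L (0.954), for S100A8 TFCP2L1 (0.971), SLC16A14 (0.968) and MRPL39 (0.968), and for S100A7 UBE2T (0.970), TOMM40L (0.959) and KIF18B (0.958). MUC16, a membrane mucin, ranged from 0.0541 to 33.3 CPM and TFCP2L1, a transcription factor, from 89.4 to 361 CPM. MRPL39 ranged only from 30.0 to 44.1 CPM, so a high r here does not mean a change of similar size. With 12 libraries in 6 groups and so many genes searched, these values are a description.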

How the data were processed

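The table the authors deposited holds raw whole-number counts for Ensembl genes, from polyA RNA (250 ng of total RNA, 300 bp inserts, 150 bp paired-end reads, a stranded kit, per the labels' protocols). TopHat2 2.1.1, SAMtools 1.4.1 and featureCounts 1.5.3 and the builds GRCh38, hg19 and hg38 are named, without roles, in the submitters' processing notes. Annotation and strandedness of the counting were not given in the sources used here. Genes were matched by identifier to GENCODE 29 (57895 of 58233), which gave symbols, GRCh38 positions and exon lengths.

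The analysis used edgeR 4.0.16 in R 4.3.3: filterByExpr over the 6 groups, TMM factors, a robust quasi-likelihood fit of group means over the 12 libraries, 12 contrasts, and Benjamini-Hochberg adjustment over 15749 genes. Tested genes held 99.866% or more of every library's counts. The SE is the log2 fold change divided by the root of the F statistic. Correlations used log2 CPM with a prior count of 2. Folds against a group at 0 were computed against 3 counts over the group, with the counts of the higher group taken as exact. The procedure was tested on simulated data. Alternatives were RLE and upper-quartile factors, no filter, DESeq2 1.42.0, the compared groups alone, the replicate number as a block, and leaving out each library. Genes named from the lists are any S100 gene and up to 4 called genes of smallest p per list. ANXA2 and the marker genes were named after their values were seen. The members and lists were chosen with earlier results of these data known. Amino acid sequences were not used here. The promoter stretch of 1 member is not reported here.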

Additional observations from a re-analysis of the deposited data

Results flagged for a closer look

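The EDTA effect differed between derivatives, by the direct test of the difference in edgeR's quasi-likelihood fit, for the following S100 genes. Between B4-4 and Vector the log2 difference was 0.82 for S100A10, 0.70 for S100A11, 0.57 for S100A16 and 9.07 for S100A7. Between Addback and B4-4 it was 4.71 for S100A8, 3.23 for S100A9, 6.79 for S100P and 8.08 for S100A7. Between Addback and Vector it was 4.04 for S100A8, 0.80 for S100A11, 0.74 for S100A16, 8.09 for S100P and 17.15 for S100A7. The S100A7 values depend on the prior count, because Vector EDTA and Addback NA were at 0 counts, and they are no measure or bound of a fold. The S100P values involving Addback rest on 3 and 7 counts in Addback NA. The S100A7 difference between Addback and B4-4 was lost without either Vector NA, any B4-4 or either Addback NA library (adjusted p 0.0535 to 0.111).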

How the results depend on the processing

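No called value changed direction under any alternative run. The number of members called with EDTA in Vector, 3, became 5 without the filter and 7 with the compared groups alone. Over all genes, in either direction, the calls there were 2416, 2906 and 4664. For EDTA in B4-4, 2 became 4 without the filter, 1 with the groups alone and 4 with DESeq2. The S100A8 call ended without the filter and with the groups alone. Over all genes 3138 became 3650, 340 and 3073. For EDTA in Addback, 5 became 3 with the groups alone (all genes 2666, then 2030). For B4-4 against Vector in NA, 0 became 1 with DESeq2 (all genes 1128, then 1457). In EDTA, 6 became 10 with the groups alone (all genes 6831, then 8415 of 15749). For Addback against B4-4 in EDTA, 2 became 1 with the groups alone (all genes 2217, then 1911). There the calls of S100A6 and S100P both ended (adjusted p 0.0654 and 0.25), so the 1 call is of another member. Against Vector in EDTA, 5 became 8 with DESeq2 (all genes 4728, then 4429). The 4 higher EDTA effects in B4-4 than in Vector became 7 without the filter (all genes, either direction, 4249, then 4602). Leaving out 1 library gave 0 to 5 calls for EDTA in Vector, 0 to 5 in B4-4 and 3 to 6 in Addback, 0 to 4 for B4-4 against Vector in NA and 6 to 8 in EDTA. It gave 2 to 6 for Addback against B4-4 in NA, 0 to 3 in EDTA, 5 to 8 for Addback against Vector in NA and 2 to 7 in EDTA. For the differences of EDTA effects it gave 1 to 7, 2 to 5 and 4 to 7 (B4-4 minus Vector, Addback minus B4-4, Addback minus Vector).

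Same-numbered libraries share only a number in the labels, and their deviations from group means correlated from −0.17 to 0.30 between groups. With the replicate number as a block, B4-4 against Vector in NA gave 1 member in place of 0 (S100A8, adjusted p = 0.0478) and Addback against B4-4 in EDTA 1 in place of 2 (S100P was lost, adjusted p = 0.0517), and the block changed no other count of members by over 1.5 times.

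Over all genes, the compared groups alone moved 2416 calls to 4664 for EDTA in Vector, 3138 to 340 in B4-4, 1128 to 6 for B4-4 against Vector in NA, 3723 to 1311 for Addback against B4-4 in NA, and 5681 to 9443 for Addback against Vector in NA. Without the filter 1128 became 1874, and 1383 differences of EDTA effect between Addback and B4-4 became 2103. Leaving out 1 library gave 708 to 4025 calls for EDTA in Vector, 748 to 4598 in B4-4 and 628 to 4307 in Addback. It gave 80 to 3353 for B4-4 against Vector in NA and 4425 to 8119 in EDTA, 1353 to 4657 and 691 to 3777 for Addback against B4-4, and 3137 to 7149 and 2739 to 6227 for Addback against Vector. For the 3 differences of EDTA effects it gave 2385 to 5506, 405 to 3031 and 2142 to 5307. Upper-quartile factors moved the share of higher calls from 49.6% to 36.8% for EDTA in B4-4 and from 53.4% to 42.0% for its difference from Vector. The cause was not tested. Depth limits S100A7 and, in Addback NA, S100P.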
